A study of Mus musculus with 12 samples.

Results

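The Wnt signalling genes described here were the Wnt ligands, the R-spondins, the secreted modulators of the SFRP, DKK and WIF families, the Frizzled receptors, the LRP co-receptors, the Axin scaffolds, beta-catenin and the LEF/TCF transcription factors. They were chosen by symbol alone, as every symbol that begins with Wnt, Fzd, Sfrp, Dkk or Rspo and a further 11 named genes, and 46 of the 18255 genes listed in the deposited tables met that rule. They comprised 17 ligands, 2 R-spondins, 9 secreted modulators, 9 Frizzled receptors, 2 co-receptors, 3 genes of the beta-catenin and Axin group and 4 LEF/TCF factors. In the fit of all 12 libraries, 21 of the 46 passed the low-count filter and were tested, which does not require expression in every library.

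The libraries were mRNA profiles of 3T3-L1, a mouse embryonic fibroblast line that is a standard model of the preadipocyte. LIGHT-Diff and NC-Diff were the LIGHT (Tnfsf14)-overexpressing and control lines after differentiation into beige adipocytes, and LIGHT-Undiff and NC-Undiff were the same lines before it, with 3 libraries in each of the 4 groups. LIGHT is a cytokine of the tumour necrosis factor superfamily. All cells grew in high-glucose DMEM with fetal bovine serum and antibiotics. The differentiated groups in addition received an induction cocktail of dexamethasone, IBMX, rosiglitazone, tri-iodothyronine, indomethacin and insulin, followed by a maintenance medium with rosiglitazone, tri-iodothyronine and insulin. The labels do not say how the overexpressing line was made, whether it is 1 clone, on which day cells were harvested or whether replicates were separate cultures, and the p-values below therefore reflect only how far libraries of a group differed, which may be technical. In a bulk profile, fewer cells of a type and less RNA per cell cannot be told apart.

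Wnt proteins are lipid-modified secreted ligands. Binding to a Frizzled receptor and LRP5 or LRP6 releases beta-catenin from a destruction complex built on Axin, and beta-catenin then acts with LEF/TCF factors on target genes, while other ligand and receptor pairs signal without beta-catenin. In preadipocytes, active beta-catenin signalling is known to hold back adipogenesis, and the secreted ligand Wnt10b is the best known of the inhibitory Wnts.

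Library totals were 16334079 to 19686675 expected counts, so that 3 counts corresponded to 0.152 to 0.184 CPM, the TMM-scaled count relative to library size. Tnfsf14, the overexpressed gene, had 0, 148 and 122 counts in LIGHT-Diff 1 to 3, 113, 0 and 0 in NC-Diff 1 to 3, 38, 53 and 58 in LIGHT-Undiff 1 to 3, and 0, 1 and 0 in NC-Undiff 1 to 3. The libraries labelled LIGHT-Diff 1 and NC-Diff 1 thus went against their labels, and the main fold changes that involve differentiated cells are given with and without them. The chi-square per gene between each of these libraries and the others of its labelled group was 34.4 to 47.9, and 2.49 to 7.17 for all other pairs of one group. Among the 21 tested Wnt genes, the level in the library labelled LIGHT-Diff 1 was nearer to the mean of NC-Diff 2 and 3 than to that of LIGHT-Diff 2 and 3 for 20, and the library labelled NC-Diff 1 was nearer to LIGHT-Diff 2 and 3 for 17. The share over all genes is not given here, so these counts describe the Wnt genes only. Summed CPM of 7 adipocyte markers was 11920 to 17310 in LIGHT-Diff, 12160 to 17450 in NC-Diff, 186.3 to 217.6 in LIGHT-Undiff and 198.7 to 233.1 in NC-Undiff. Of these, Fabp4 had 11650, 7099 and 7366 CPM in LIGHT-Diff 1 to 3. In NC-Diff 1 to 3 it had 6993, 11100 and 11810 CPM. Adipoq had 1433, 999.6 and 999.3 CPM in LIGHT-Diff 1 to 3, and 1069, 1307 and 1440 CPM in NC-Diff 1 to 3. Without the 2 libraries in doubt, both were lower in LIGHT-Diff than in NC-Diff, with no overlap. The part of this in other differences between the differentiated lines was not tested. The beige marker Ucp1 had 0 to 2 counts in every library. Summed leukocyte markers stayed at 1.94 to 4.61 CPM and endothelial markers at 0.435 to 1.10 CPM. Of 4 epithelial markers, 1 was not listed or at 0 throughout LIGHT-Diff, and 2 throughout each other group. Their sum reached 2.26 to 8.73 CPM in LIGHT-Diff and 1.49 to 10.5 CPM in NC-Diff, against 0.0537 to 0.177 CPM in LIGHT-Undiff and 0 to 0.337 CPM in NC-Undiff. Summed markers of muscle, with 1 or 2 of the 4 not listed or at 0 throughout a group, were 17.0 to 29.5 CPM in LIGHT-Diff and 18.2 to 29.5 CPM in NC-Diff, against 7.03 to 8.21 CPM in LIGHT-Undiff and 9.41 to 10.7 CPM in NC-Undiff. Their part in the differences between stages was not tested. Preadipocyte and fibroblast markers also differed between the undifferentiated lines, with 21690 to 23000 CPM in LIGHT-Undiff and 14730 to 16310 CPM in NC-Undiff. They had 15120 to 18690 CPM in LIGHT-Diff and 14580 to 20730 CPM in NC-Diff, so that in NC cells the stages overlapped. The part of these markers in the differences between lines or stages was not tested.

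The 250 bases before the transcription start of 4 of the genes on which the results turn are given here. Wnt4 and Tcf7l1 had the largest fold changes between the undifferentiated lines among the tested members above 10 CPM. Dkk2 and Fzd4 were among the tested members with the largest fold changes on differentiation. The sequences are RefSeq promoter windows on GRCm38.p6, read in the direction of transcription. Capitals mark GC boxes (GGGCGG) and TATA boxes (TATAAA) on either strand.
Wnt4, gene 22417 in the deposited tables, chr4:137277385-137277634, plus strand: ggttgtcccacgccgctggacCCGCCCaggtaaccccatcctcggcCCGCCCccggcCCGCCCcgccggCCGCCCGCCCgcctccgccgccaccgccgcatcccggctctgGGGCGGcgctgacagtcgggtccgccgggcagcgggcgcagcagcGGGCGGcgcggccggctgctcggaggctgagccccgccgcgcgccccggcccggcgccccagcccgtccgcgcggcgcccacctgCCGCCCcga
Dkk2, gene 56811 in the deposited tables, chr3:132085042-132085291, plus strand: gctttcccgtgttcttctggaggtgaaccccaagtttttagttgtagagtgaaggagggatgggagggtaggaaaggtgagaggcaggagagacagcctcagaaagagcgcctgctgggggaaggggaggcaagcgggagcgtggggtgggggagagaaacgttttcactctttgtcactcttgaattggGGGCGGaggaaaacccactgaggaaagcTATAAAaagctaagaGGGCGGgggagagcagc
Tcf7l1, gene 21415 in the deposited tables, chr6:72789046-72789295, minus strand: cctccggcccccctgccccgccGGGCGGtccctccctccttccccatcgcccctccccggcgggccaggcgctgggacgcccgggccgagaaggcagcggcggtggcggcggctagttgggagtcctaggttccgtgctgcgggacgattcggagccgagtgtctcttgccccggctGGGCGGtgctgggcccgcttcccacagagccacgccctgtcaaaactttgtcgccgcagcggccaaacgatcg
Fzd4, gene 14366 in the deposited tables, chr7:89404116-89404365, plus strand: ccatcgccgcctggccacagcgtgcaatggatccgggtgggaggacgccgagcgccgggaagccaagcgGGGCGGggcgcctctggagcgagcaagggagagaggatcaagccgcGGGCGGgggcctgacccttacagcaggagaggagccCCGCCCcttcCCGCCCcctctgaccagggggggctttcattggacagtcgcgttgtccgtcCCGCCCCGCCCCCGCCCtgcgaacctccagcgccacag
The Wnt4 window was 85.2% G or C and held 8 GC boxes, counting overlapping ones. The Fzd4 window was 72.8% G or C with 7 GC boxes, the Tcf7l1 window 73.6% with 2, and the Dkk2 window 55.6% with 2, against a median of 52.4% over 32851 windows of all genes. Only the Dkk2 window of these 4 held a TATA box. A GC box occurred in 32.7% of all windows and a TATA box in 12.4%, and both motifs were picked after these windows had been read. The letters of a TCF/LEF site (CTTTGAT, in 3.21% of all windows), an AP-1 site (TGANTCA, 6.75%), an NF-kB site (4.11%) and the PPAR/RXR direct repeat (0.338%) were not in any of the 4 windows on either strand.

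In both lines the differentiated cells had more of the LRP co-receptors, Lef1, Tcf7l1, Tcf7l2, Fzd4, Fzd5 and Dkk2, and less of beta-catenin, Axin1, Fzd2, Fzd7, Fzd8 and Sfrp2, than undifferentiated cells. A gene was called where edgeR's quasi-likelihood test gave a Benjamini-Hochberg adjusted p under 0.05 over all genes tested. Between LIGHT-Diff and LIGHT-Undiff 15 of 21 members were called, 8 higher and 7 lower. Of all genes tested, 58.6% were called in this comparison, 29.5% higher and 29.1% lower. Between NC-Diff and NC-Undiff 16 of 21 were called, 10 higher and 6 lower. Of all genes tested, 63.9% were called here, 32.2% higher and 31.7% lower. Dkk2, called higher in both lines, passed the low-count filter through the differentiated groups, the stage at which it was high. The median log2 fold change of the 21 members was 0.34 in LIGHT cells and 0.30 in NC cells, and that of all genes was 0.00 in each. With the 2 libraries left out, 22 members were tested, Wnt10b being the addition, which passed the low-count filter through undifferentiated libraries alone. Then 18 were called in LIGHT cells, 10 higher and 8 lower, beside 64.1% of all genes, 32.3% higher and 31.9% lower. In NC cells 17 were called, 10 higher and 7 lower, beside 70.7% of all genes, 35.8% higher and 34.9% lower. The members' medians were then 0.12 in LIGHT cells and -0.05 in NC cells.

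Before differentiation the LIGHT line already differed from the control line at 10 of the 21 members, 7 of them higher and 3 lower in LIGHT-Undiff. Of all genes tested, 26.5% were called between these groups, 12.3% higher and 14.2% lower. The median log2 fold change was -0.08 over the members and -0.01 over all genes. The count was 6 without NC-Undiff 2 and 7 without any other of the undifferentiated libraries. Over all genes, 2361 of 13194 were called without NC-Undiff 2, against 3446 of 12993 with all 12 libraries. Leaving out any other undifferentiated library gave 2238 to 2611 calls over all genes. Over the other 10 libraries, which also enter the estimate of spread, 13 of 22 members were called, 8 higher and 5 lower, beside 44.4% of all genes, 22.3% higher and 22.1% lower, and the members' median was -0.09. After differentiation edgeR called 0 of 21 members between LIGHT-Diff and NC-Diff as labelled, and 0% of all genes. At an unadjusted p under 0.05 there were 523 genes and 0 members, and DESeq2 called 1 gene and 0 members. When both doubted libraries were omitted 10 of 22 members were called, 5 higher and 5 lower in LIGHT-Diff. Of all genes tested, 31% were then called, 14.6% higher and 16.4% lower. Rspo3, among the lower members at both stages without the 2 libraries, passed the low-count filter there through NC libraries alone. The members' median was then 0.04 and that of all genes -0.01.

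**Figure D1:**
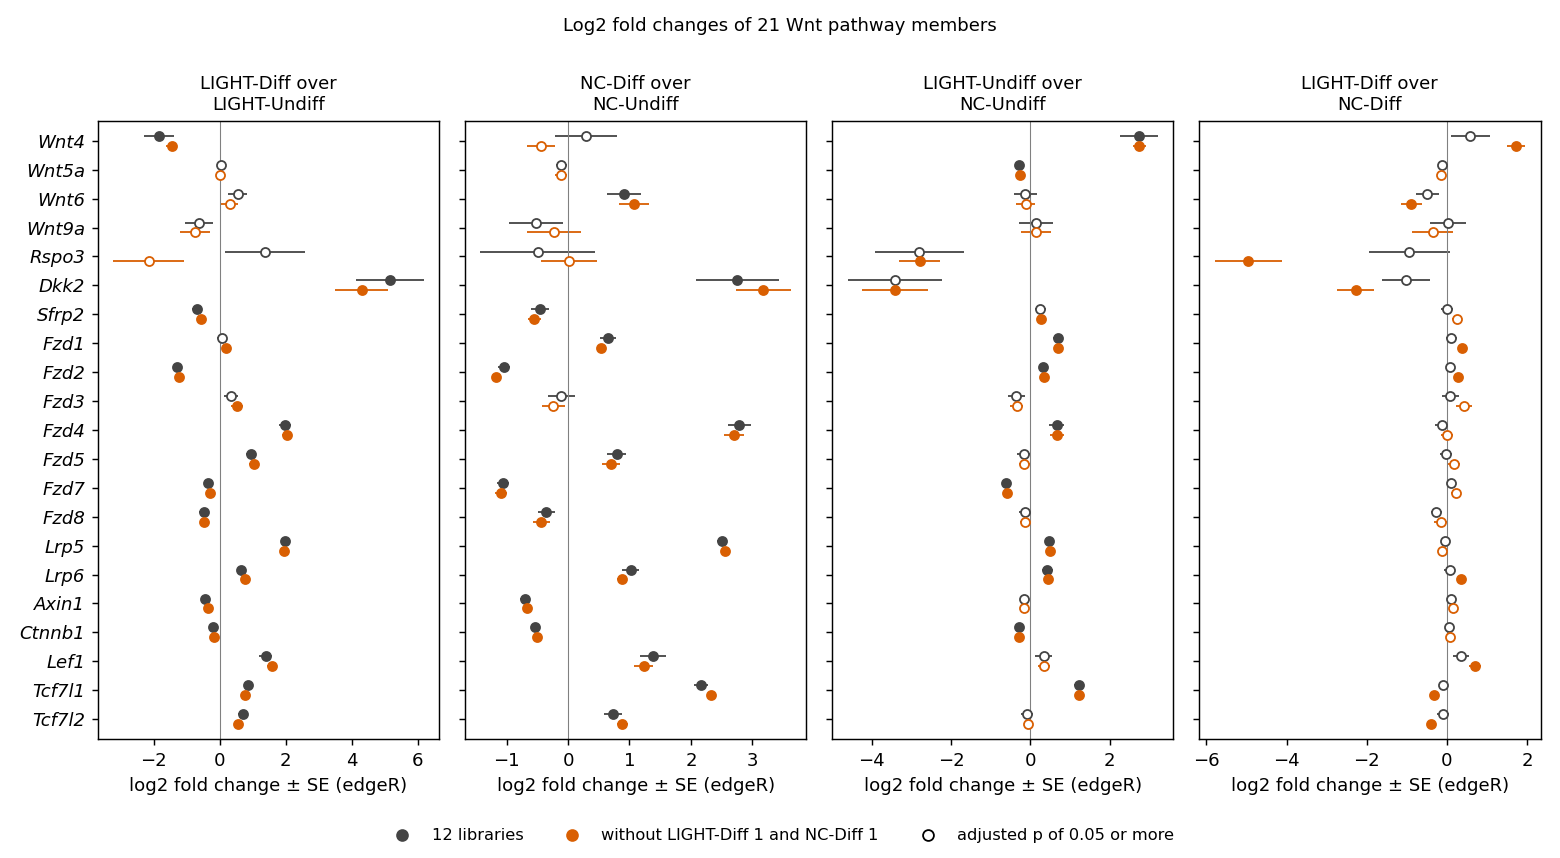
Log2 fold change ± SE of the 21 tested members in 4 comparisons, with all 12 libraries (grey) and without LIGHT-Diff 1 and NC-Diff 1 (orange). Filled points have an edgeR adjusted p under 0.05, and the x axes differ in range. In the comparison of LIGHT-Diff with NC-Diff 0 grey points are filled, against 10 orange ones on the same members.

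Wnt4, a ligand known for its roles in kidney and female reproductive tract development, was the ligand with the largest fold change between the undifferentiated lines among those tested with all 12 libraries. Wnt4 had 2.68, 10.4 and 8.47 CPM in LIGHT-Diff 1 to 3, 8.89, 1.88 and 3.73 CPM in NC-Diff 1 to 3, 26.7, 27.0 and 24.2 CPM in LIGHT-Undiff 1 to 3, and 3.93, 3.32 and 4.49 CPM in NC-Undiff 1 to 3. All LIGHT-Undiff libraries lay far above every other library, and among differentiated cells the libraries labelled LIGHT-Diff 1 and NC-Diff 1 each lay within the range of the opposite line. Before differentiation Wnt4 was higher in LIGHT-Undiff than in NC-Undiff by 2.73 on the log2 scale (SE 0.48, edgeR adjusted p = 0.00163). After differentiation the labelled groups overlapped, with a log2 fold change of 0.59 in LIGHT-Diff over NC-Diff (SE 0.48, edgeR adjusted p = 0.913). Without the 2 libraries it was 1.73 (SE 0.22, edgeR adjusted p = 8.59e-06) and the groups did not overlap.

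Wnt4 fell on differentiation of LIGHT cells, with a log2 fold change of -1.84 (SE 0.46, edgeR adjusted p = 0.00381), and without the 2 libraries -1.45 (SE 0.17, edgeR adjusted p = 2.36e-07). In NC cells its log2 fold change was 0.30 (SE 0.51, edgeR adjusted p = 0.626), and without the 2 libraries -0.44 (SE 0.23, edgeR adjusted p = 0.0969). That value was -1.04 when NC-Diff 3 was also left out, with only NC-Diff 2 left in its group. The difference between the lines in this change had an edgeR adjusted p of 0.0689 with 12 libraries, where the log2 difference was -2.14. With the 2 libraries left out the log2 difference was -1.01 (SE 0.29, edgeR adjusted p = 0.0105). It was -0.43 with only NC-Diff 2 left in its group, and -0.88 with only LIGHT-Diff 2 left in its group.

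Wnt5a, which mainly signals without beta-catenin, was the most abundant ligand per length in every group, at 8.46 ± 0.23 FPKM in LIGHT-Diff, 8.80 ± 1.00 FPKM in NC-Diff, 8.51 ± 0.90 FPKM in LIGHT-Undiff and 10.2 ± 0.99 FPKM in NC-Undiff (mean ± SD, n = 3 each). Wnt5a averaged 8.40 FPKM in LIGHT-Diff and 8.46 FPKM in NC-Diff when the 2 libraries in doubt were left out. Wnt4 came next in LIGHT-Undiff at 7.26 ± 0.36 FPKM, where its highest library had 7.52 FPKM and the lowest of Wnt5a had 7.54 FPKM. In NC-Undiff Wnt6 came after Wnt5a at 1.72 FPKM, before Wnt4 at 1.11 FPKM, and their libraries did not overlap. In LIGHT-Diff the order of the Wnt6 and Wnt4 means rested on the library labelled LIGHT-Diff 1. In NC-Diff the Wnt6 mean was above that of Wnt4 with and without the library labelled NC-Diff 1. With all libraries Wnt6 averaged 2.16 FPKM in LIGHT-Diff and 2.96 FPKM in NC-Diff, and Wnt4 1.94 and 1.27 FPKM, with overlapping libraries in both groups. Without the 2, Wnt4 at 2.57 FPKM was above Wnt6 at 1.87 FPKM in LIGHT-Diff, while Wnt6 at 3.26 FPKM was above Wnt4 at 0.72 FPKM in NC-Diff, and the libraries overlapped in neither group.

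Wnt5a had 35.6, 33.4 and 32.8 CPM in LIGHT-Diff 1 to 3, 38.4, 32.8 and 39.6 CPM in NC-Diff 1 to 3, 34.7, 29.4 and 34.1 CPM in LIGHT-Undiff 1 to 3, and 43.8, 38.5 and 37.3 CPM in NC-Undiff 1 to 3. Only between the undifferentiated lines did these values not overlap, with LIGHT-Undiff lower. The log2 fold change there was -0.28 (SE 0.10, edgeR adjusted p = 0.0454). That call was lost when any 1 of the 6 undifferentiated libraries, NC-Diff 3, LIGHT-Diff 2 or LIGHT-Diff 3 was left out, with edgeR adjusted p of 0.0513 to 0.182, and also with no filter (adjusted p = 0.0767) and with limma on FPKM (adjusted p = 0.103). On differentiation the log2 fold change was 0.05 in LIGHT cells and -0.11 in NC cells, and 0.02 and -0.11 without the 2 libraries, none of them called. Over the other 10 libraries the fold change was -0.27 (edgeR adjusted p = 0.0144), and it was -0.20 without NC-Undiff 1 (adjusted p = 0.0911) and without LIGHT-Undiff 2 (adjusted p = 0.0955).

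Wnt6, a ligand reported to inhibit adipogenesis, had 5.55, 2.80 and 4.39 CPM in LIGHT-Diff 1 to 3, 4.60, 7.21 and 5.94 CPM in NC-Diff 1 to 3, 3.13, 3.30 and 2.26 CPM in LIGHT-Undiff 1 to 3, and 3.18, 3.88 and 2.39 CPM in NC-Undiff 1 to 3. Every NC-Diff library was above every undifferentiated one, whereas LIGHT-Diff 2 lay among LIGHT-Undiff. Wnt6 rose on differentiation of NC cells by 0.91 on the log2 scale (SE 0.28, edgeR adjusted p = 0.0133). The adjusted p was 0.0589 without NC-Undiff 3 and 0.0535 without NC-Diff 2. When both doubted libraries were omitted the rise was 1.08 (SE 0.24, edgeR adjusted p = 0.000591). In LIGHT cells the log2 fold change was 0.55 (edgeR adjusted p = 0.12), and 0.31 (adjusted p = 0.315) without the 2 libraries. It was 0.78 (adjusted p = 0.0314) when LIGHT-Diff 2 alone was left out. As labelled, the log2 fold change of LIGHT-Diff over NC-Diff was -0.49 (edgeR adjusted p = 0.913). Between LIGHT-Diff and NC-Diff without the 2 libraries it was -0.89 (SE 0.27, edgeR adjusted p = 0.0167). It was -0.75 with only NC-Diff 3 left in its group, and -0.59 with only LIGHT-Diff 3 left in its group.

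Wnt9a, known from joint formation, ranged from 9 to 31 counts and was called in none of the comparisons. Wnt10b, at 0.0587 CPM on average in LIGHT-Diff, 0.0955 in NC-Diff, 0.465 in LIGHT-Undiff and 0.517 in NC-Undiff, had 1, 1 and 1 counts in LIGHT-Diff, 2, 0 and 3 in NC-Diff, 11, 6 and 8 in LIGHT-Undiff, and 11, 8 and 8 in NC-Undiff. No differentiated library reached the lowest undifferentiated one. It was tested only without the 2 libraries, where it passed the low-count filter through undifferentiated libraries alone, the stage at which it was high, so that a difference between stages was built into its selection. LIGHT-Diff then held 2 summed counts and LIGHT-Undiff 25, 8.09 times as many after scaling to library size (95% interval 2.02 to 70.4, edgeR adjusted p = 0.0165). NC-Diff held 3 and NC-Undiff 27, 6.03 times as many after scaling (95% interval 1.86 to 31.1, edgeR adjusted p = 0.0201). The other 12 ligands, Wnt1, Wnt2, Wnt2b, Wnt3, Wnt5b, Wnt7a, Wnt7b, Wnt8a, Wnt8b, Wnt10a, Wnt11 and Wnt16, stayed at or below 11 counts in every library and were not tested.

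**Figure D2:**
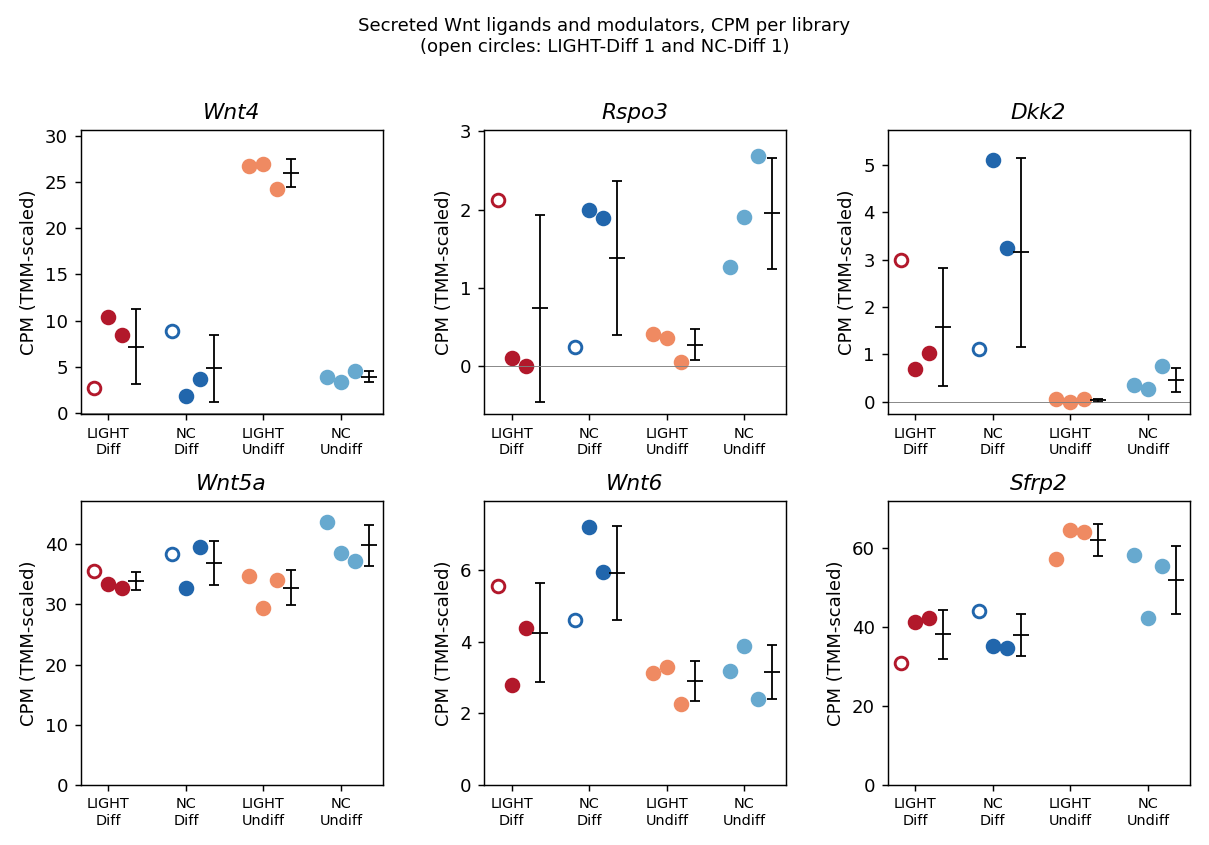
TMM-scaled CPM of 6 secreted ligands and modulators in each library (points) with the group mean ± SD (n = 3) at the right of each group, where open circles are the libraries labelled LIGHT-Diff 1 and NC-Diff 1. Wnt4 stands at 24.2 to 27.0 CPM in LIGHT-Undiff and at no more than 10.4 CPM elsewhere, and for Wnt4, Rspo3 and Dkk2 the open circles lie at the level of the opposite line.

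Rspo3, an R-spondin that strengthens Wnt signals through the LGR receptors, had few counts in every library. Rspo3 had 34, 2 and 0 counts in LIGHT-Diff 1 to 3, 4, 33 and 35 in NC-Diff 1 to 3, 7, 7 and 1 in LIGHT-Undiff 1 to 3, and 22, 34 and 46 in NC-Undiff 1 to 3. The undifferentiated lines did not overlap, and in differentiated cells the library labelled LIGHT-Diff 1 was at the level of NC-Diff 2 and 3. NC-Undiff was the only group with all its libraries past the level of the low-count filter, which LIGHT-Diff 1, NC-Diff 2 and NC-Diff 3 also reached. With 12 libraries the log2 fold change of LIGHT-Undiff over NC-Undiff was -2.79 (SE 1.12, edgeR adjusted p = 0.0849). The adjusted p was 0.0439 without NC-Diff 1 and 0.0141 without LIGHT-Diff 1. Without both it was 0.000245 at a log2 fold change of -2.78 (SE 0.52). After differentiation the labelled groups gave -0.93 (SE 1.02, edgeR adjusted p = 0.913). Without the 2 libraries the summed counts were 2 in LIGHT-Diff and 68 in NC-Diff, 34.3 times as many in NC-Diff after scaling to library size (95% interval 9.14 to 289, edgeR adjusted p = 0.000175). Rspo3 then passed the filter through NC libraries alone, the line in which it was high, so a difference between lines was built into its selection. Differentiation gave no call for Rspo3 in either line, and in LIGHT cells its log2 fold change was 1.37 with 12 libraries and -2.15 without the 2, with edgeR adjusted p of 0.347 and 0.0868. Without LIGHT-Undiff 3 as well it was -2.64 (adjusted p = 0.0259). Rspo2 had at most 6 counts in any library.

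Dkk2, of the Dickkopf family of LRP5 and LRP6 ligands, was the member with the largest fold change on differentiation of LIGHT cells. Only the differentiated groups had all their libraries past the level of the low-count filter, so a difference between stages was built into the selection of Dkk2. Dkk2 had 48, 13 and 17 counts in LIGHT-Diff 1 to 3, 18, 84 and 60 in NC-Diff 1 to 3, 1, 0 and 1 in LIGHT-Undiff 1 to 3, and 6, 5 and 13 in NC-Undiff 1 to 3. Within each line every differentiated library exceeded every undifferentiated library, and LIGHT-Undiff lay below NC-Undiff throughout. Dkk2 rose on differentiation of LIGHT cells (edgeR adjusted p = 0.000857), with 78 summed counts in LIGHT-Diff and 2 in LIGHT-Undiff, 41.5 times as many after scaling (95% interval 11.1 to 348). Without the library labelled LIGHT-Diff 1 the ratio was 23.2 (95% interval 5.88 to 200). In NC cells the rise was 2.76 on the log2 scale (SE 0.68, edgeR adjusted p = 0.00334), and 3.18 (SE 0.45) without the 2 libraries.

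Before differentiation LIGHT-Undiff held 2 summed Dkk2 counts and NC-Undiff 24, 12.5 times as many after scaling (95% interval 3.11 to 110), with an edgeR adjusted p of 0.0509. The adjusted p was 0.00273 without the 2 libraries in doubt. It was under 0.05 without either of them alone, at 0.0248 without NC-Diff 1 and 0.0253 without LIGHT-Diff 1, and also at 0.0442 without NC-Diff 2 and 0.0436 without LIGHT-Diff 2. After differentiation the log2 fold change of LIGHT-Diff over NC-Diff was -1.02 (edgeR adjusted p = 0.913), and -2.28 (SE 0.47, edgeR adjusted p = 0.00105) without the 2 libraries.

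Sfrp2, a secreted Frizzled-related protein that binds Wnts, was the only modulator above 1.37 FPKM in any library. Sfrp2 had 30.9, 41.2 and 42.1 CPM in LIGHT-Diff 1 to 3, 44.0, 35.1 and 34.6 CPM in NC-Diff 1 to 3, 57.2, 64.4 and 63.9 CPM in LIGHT-Undiff 1 to 3, and 58.1, 42.1 and 55.3 CPM in NC-Undiff 1 to 3. The stages did not overlap in LIGHT cells, while NC-Undiff 2 lay below NC-Diff 1. Sfrp2 fell by 0.70 on the log2 scale on differentiation of LIGHT cells (SE 0.14, edgeR adjusted p = 0.00109) and fell by 0.45 in NC cells (SE 0.14, edgeR adjusted p = 0.0153). The call in NC cells was lost without NC-Undiff 1, NC-Undiff 3, NC-Diff 2 or NC-Diff 3, with adjusted p of 0.0555 to 0.0704. With the 2 libraries left out the log2 fold change was -0.57 in LIGHT cells (edgeR adjusted p = 7.13e-05) and -0.55 in NC cells (edgeR adjusted p = 0.000108). The log2 fold change of LIGHT-Undiff over NC-Undiff was 0.26 (edgeR adjusted p = 0.206) with 12 libraries. Over the other 10 libraries it was 0.27 (edgeR adjusted p = 0.0192), a call lost without NC-Undiff 2, LIGHT-Undiff 2 or LIGHT-Undiff 3, at adjusted p of 0.0594 to 0.13.

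The other secreted modulators were below the level tested. Sfrp5, an adipose-secreted relative of Sfrp2, had 9, 7 and 4 counts in LIGHT-Diff 1 to 3 and 6, 9 and 0 in NC-Diff 1 to 3, against 0 in all 6 undifferentiated libraries. Dkk3 had 0 counts in all 6 differentiated libraries, against 5, 11 and 5 in LIGHT-Undiff 1 to 3 and 8, 3 and 2 in NC-Undiff 1 to 3. A count of 0 allows up to 3 counts in a library, so these contrasts rest on few reads. Dkkl1, Frzb, Sfrp1, Sfrp4 and Wif1 stayed at or below 5 counts in every library.

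The Frizzled receptors, which bind Wnts at the cell surface, had a different order of levels in the 2 stages. Per length, Fzd1 led alone in differentiated cells, at 42.3 ± 8.71 FPKM in LIGHT-Diff and 38.4 ± 7.16 FPKM in NC-Diff (mean ± SD, n = 3 each). Fzd2 followed at 16.1 FPKM in LIGHT-Diff and 14.9 FPKM in NC-Diff, and Fzd4 came after it at 10.2 FPKM in LIGHT-Diff and 10.9 FPKM in NC-Diff. The libraries of Fzd2 and Fzd4 overlapped in NC-Diff but not in LIGHT-Diff. The order was the same without the 2 libraries, and these 3 receptors then did not overlap in either group, Fzd1 averaging 47.3 FPKM in LIGHT-Diff and 34.2 FPKM in NC-Diff, Fzd2 17.1 and 13.2 FPKM, and Fzd4 10.6 and 9.97 FPKM. In LIGHT-Undiff Fzd1 and Fzd2 led at 42.4 ± 2.30 and 41.2 ± 1.44 FPKM, with overlapping libraries, and in NC-Undiff Fzd2 led at 33.3 ± 0.14 FPKM before Fzd1 at 26.5 ± 2.57 FPKM. Fzd7 came after these, at 6.92 FPKM in LIGHT-Undiff and 10.7 FPKM in NC-Undiff. Fzd3 was lowest of the tested receptors, at no more than 0.48 FPKM in any library, and Fzd6 and Fzd9 had at most 4 counts.

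**Figure D3:**
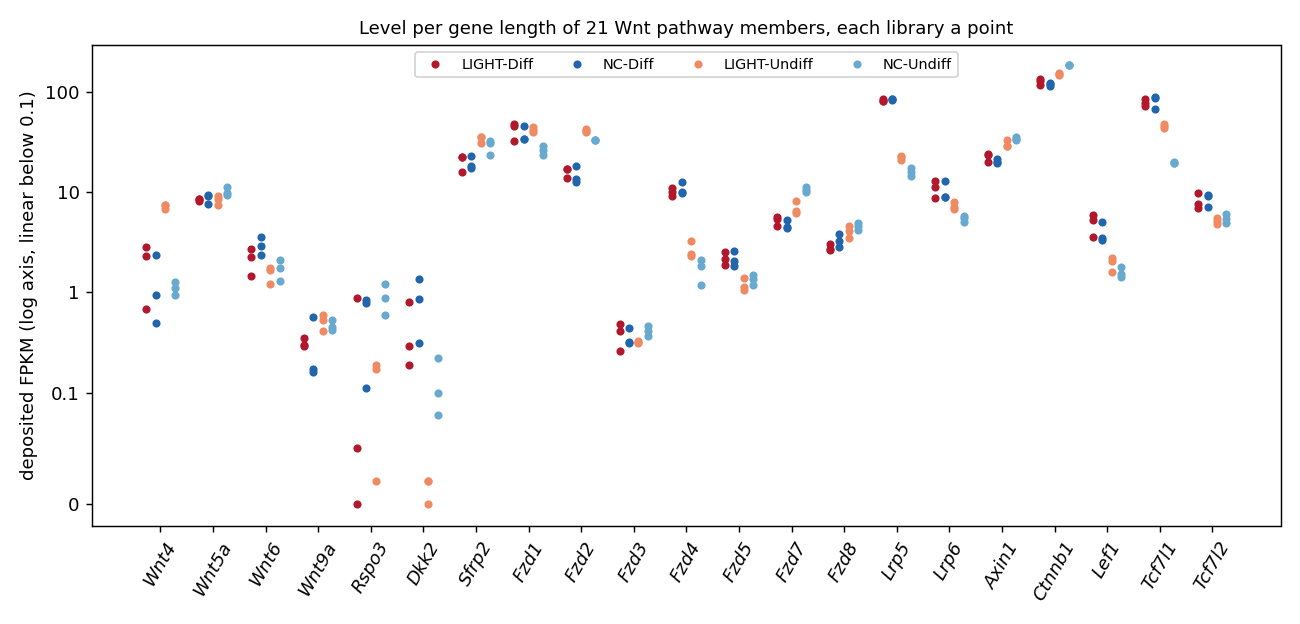
Deposited FPKM of the 21 tested members in each library, by group, on a log axis that is linear below 0.1 FPKM. Ctnnb1 is highest in every group, Wnt5a is the highest ligand, and Lrp5, Tcf7l1 and Fzd4 show the stages as separate levels.

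Fzd4, the receptor for Norrin as well as for Wnts, rose most among the Frizzleds. Fzd4 had 34.7, 39.4 and 35.7 CPM in LIGHT-Diff 1 to 3, 46.1, 36.5 and 37.9 CPM in NC-Diff 1 to 3, 8.33, 8.07 and 11.2 CPM in LIGHT-Undiff 1 to 3, and 7.16, 3.99 and 6.30 CPM in NC-Undiff 1 to 3. The stages were far apart in both lines, and LIGHT-Undiff lay above NC-Undiff. Fzd4 rose by 1.99 on the log2 scale in LIGHT cells (SE 0.18, edgeR adjusted p = 1.06e-06) and by 2.79 in NC cells (SE 0.19, edgeR adjusted p = 5.77e-08). When both doubted libraries were omitted these values were 2.04 and 2.70. Before differentiation Fzd4 was higher in LIGHT-Undiff by 0.66 on the log2 scale (SE 0.20, edgeR adjusted p = 0.0252), a call lost without NC-Undiff 2 (0.45, adjusted p = 0.0866) or LIGHT-Undiff 3 (0.50, adjusted p = 0.108). After differentiation its log2 fold change of LIGHT-Diff over NC-Diff was -0.13 (edgeR adjusted p = 0.919), and 0.01 (SE 0.15, edgeR adjusted p = 0.98) without the 2 libraries.

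Fzd1 had 145, 207 and 196 CPM in LIGHT-Diff 1 to 3, 201, 153 and 154 CPM in NC-Diff 1 to 3, 169, 173 and 184 CPM in LIGHT-Undiff 1 to 3, and 118, 108 and 98.3 CPM in NC-Undiff 1 to 3. NC-Undiff lay below all other libraries. Fzd1 was higher in LIGHT-Undiff than in NC-Undiff by 0.70 on the log2 scale (SE 0.14, edgeR adjusted p = 0.00279) and rose on differentiation of NC cells by 0.65 (SE 0.14, edgeR adjusted p = 0.00101), and by 0.53 (SE 0.07, edgeR adjusted p = 5.42e-07) without the 2 libraries. In LIGHT cells the log2 fold change on differentiation was 0.06 (SE 0.13, edgeR adjusted p = 0.705). Without the 2 libraries it was 0.21 (SE 0.06, edgeR adjusted p = 0.00789), and 0.17 with only LIGHT-Diff 3 left in its group. Scaling by library totals gave 0.15 (adjusted p = 0.0525) without the 2 libraries, and -0.01 with all 12 libraries. The log2 fold change of LIGHT-Diff over NC-Diff was 0.11 as labelled and 0.39 (SE 0.07, edgeR adjusted p = 0.000353) without the 2 libraries.

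Fzd2 had 51.6, 59.9 and 59.4 CPM in LIGHT-Diff 1 to 3, 64.4, 46.5 and 50.7 CPM in NC-Diff 1 to 3, 136, 140 and 143 CPM in LIGHT-Undiff 1 to 3, and 111, 110 and 112 CPM in NC-Undiff 1 to 3. All differentiated libraries lay below all undifferentiated ones. Fzd2 fell by 1.29 on the log2 scale in LIGHT cells (SE 0.10, edgeR adjusted p = 3.36e-07) and fell by 1.05 in NC cells (SE 0.10, edgeR adjusted p = 1.76e-06). On 10 libraries its log2 fold changes were -1.22 in LIGHT cells and -1.17 in NC cells. LIGHT-Undiff was above NC-Undiff by 0.33 (SE 0.10, edgeR adjusted p = 0.0297), a call lost when any 1 of the 6 undifferentiated libraries was left out, at adjusted p of 0.0607 to 0.0846, with library totals (adjusted p = 0.0611) and with limma on FPKM (adjusted p = 0.0775). It held without the 2 libraries in doubt (0.34, adjusted p = 1.47e-05). As labelled LIGHT-Diff over NC-Diff was 0.08 (adjusted p = 0.919). Without those 2 libraries LIGHT-Diff was above NC-Diff by 0.29 (edgeR adjusted p = 0.00246), and by 0.22 with only NC-Diff 3 left in its group.

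Fzd7, of the same subfamily as Fzd1 and Fzd2, had 22.8, 26.6 and 25.3 CPM in LIGHT-Diff 1 to 3, 25.1, 22.1 and 22.1 CPM in NC-Diff 1 to 3, 28.4, 29.5 and 36.7 CPM in LIGHT-Undiff 1 to 3, and 50.5, 45.5 and 48.4 CPM in NC-Undiff 1 to 3. NC-Undiff stood apart above the rest. Fzd7 was lower in LIGHT-Undiff than in NC-Undiff by 0.61 on the log2 scale (log2 fold change -0.61, SE 0.10, edgeR adjusted p = 0.00113). It fell by 0.34 on differentiation of LIGHT cells (SE 0.10, edgeR adjusted p = 0.0131) and fell by 1.06 in NC cells (SE 0.10, edgeR adjusted p = 1.85e-06). The change in LIGHT cells was -0.22 (adjusted p = 0.0701) without LIGHT-Undiff 3. With the 2 libraries left out the changes were -1.10 in NC cells and -0.28 in LIGHT cells (adjusted p = 0.0186). The change in LIGHT cells was then -0.15 (adjusted p = 0.124) without LIGHT-Undiff 3, and -0.24 with only LIGHT-Diff 2 left in its group. The difference between the changes was 0.72 (SE 0.15, edgeR adjusted p = 0.00996), and 0.82 (SE 0.14, edgeR adjusted p = 0.000157) without the 2 libraries. Some Fzd7 counts were not whole, so reads may have been shared with another gene.

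Fzd5, Fzd8 and Fzd3 were the other tested Frizzleds. Fzd5 averaged 15.1 ± 2.06 CPM in LIGHT-Diff, 15.2 ± 2.32 CPM in NC-Diff, 7.81 ± 1.02 CPM in LIGHT-Undiff and 8.78 ± 1.03 CPM in NC-Undiff (SD, n = 3 each), and the stages did not overlap. Fzd5 rose by 0.95 on the log2 scale in LIGHT cells (edgeR adjusted p = 0.000196) and by 0.79 in NC cells (edgeR adjusted p = 0.000641), and without the 2 libraries by 1.03 and 0.70. Fzd8 averaged 9.15 ± 0.59 CPM in LIGHT-Diff, 11.0 ± 1.48 CPM in NC-Diff, 12.8 ± 1.69 CPM in LIGHT-Undiff and 14.1 ± 1.20 CPM in NC-Undiff (SD, n = 3 each). It fell by 0.48 in LIGHT cells (edgeR adjusted p = 0.00902) and fell by 0.35 in NC cells (edgeR adjusted p = 0.0361). The second of these was lost without NC-Undiff 1, NC-Undiff 3, NC-Diff 2 or NC-Diff 3, at adjusted p of 0.0773 to 0.164, and with no filter (adjusted p = 0.0629). Over the other 10 libraries the changes of Fzd8 were -0.46 and -0.44, at adjusted p of 0.00739 and 0.00878. They were -0.37 in LIGHT cells with only LIGHT-Diff 3 left in its group, and -0.36 in NC cells with only NC-Diff 2 left in its group. Fzd3 had 56 to 114 counts per library and was called in 0 of the comparisons with 12 libraries, its log2 fold change in LIGHT cells being 0.34 (edgeR adjusted p = 0.193). Without LIGHT-Diff 1 it was 0.53 (adjusted p = 0.0315), and without both libraries in doubt 0.54 (adjusted p = 0.0139), or 0.54 (adjusted p = 0.0613) by DESeq2. It was 0.43 with only LIGHT-Diff 3 left in its group.

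**Figure D4:**
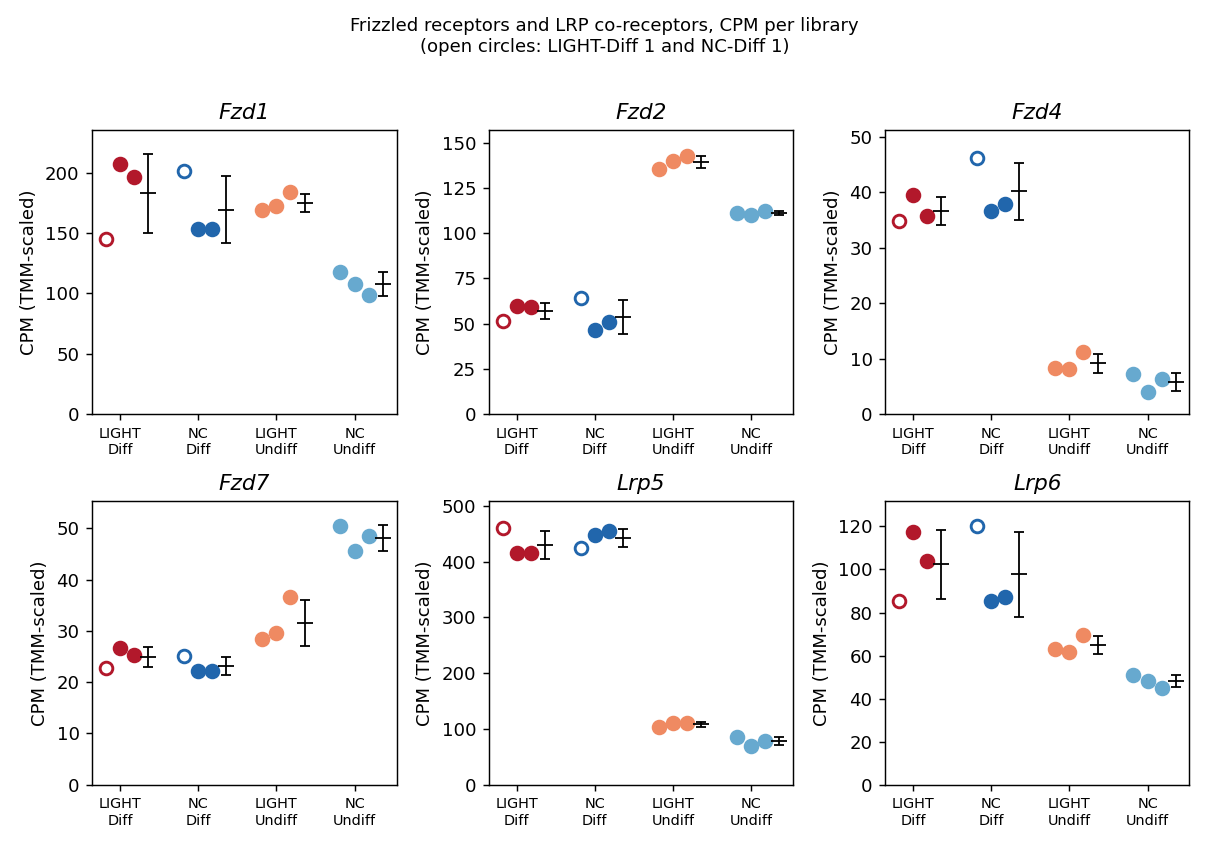
TMM-scaled CPM of 4 Frizzled receptors and the LRP co-receptors in each library (points), with the group mean ± SD (n = 3) at the right of each group and the libraries labelled LIGHT-Diff 1 and NC-Diff 1 as open circles. Fzd4, Lrp5 and Lrp6 are higher in all differentiated libraries and Fzd2 and Fzd7 are lower, and Fzd7 is 45.5 to 50.5 CPM in NC-Undiff against 28.4 to 36.7 CPM in LIGHT-Undiff.

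Both LRP co-receptors, which join Frizzled in the beta-catenin branch, rose on differentiation. Lrp5 had 460, 416 and 416 CPM in LIGHT-Diff 1 to 3, 424, 449 and 455 CPM in NC-Diff 1 to 3, 103, 111 and 110 CPM in LIGHT-Undiff 1 to 3, and 85.1, 70.1 and 78.8 CPM in NC-Undiff 1 to 3. Each differentiated library lay far above each undifferentiated one, and LIGHT-Undiff lay above NC-Undiff. Lrp5 rose by 1.99 on the log2 scale in LIGHT cells (SE 0.08, edgeR adjusted p = 7.13e-10) and by 2.50 in NC cells (SE 0.08, edgeR adjusted p = 9.14e-11), and without the 2 libraries by 1.95 and 2.56. LIGHT-Undiff exceeded NC-Undiff by 0.47 (SE 0.08, edgeR adjusted p = 0.00104), and the difference between the changes was -0.51 (SE 0.11, edgeR adjusted p = 0.0121), and -0.61 without the 2 libraries. LIGHT-Diff over NC-Diff gave -0.04 (SE 0.08, edgeR adjusted p = 0.937), and -0.13 (SE 0.07, edgeR adjusted p = 0.162) without the 2 libraries.

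Lrp6 had 85.5, 118 and 104 CPM in LIGHT-Diff 1 to 3, 120, 85.5 and 87.4 CPM in NC-Diff 1 to 3, 63.2, 61.5 and 69.6 CPM in LIGHT-Undiff 1 to 3, and 50.8, 48.2 and 45.2 CPM in NC-Undiff 1 to 3. The order of the stages was the same as for Lrp5, with smaller steps. Lrp6 rose by 0.66 on the log2 scale in LIGHT cells (SE 0.14, edgeR adjusted p = 0.00111) and by 1.02 in NC cells (SE 0.14, edgeR adjusted p = 3.14e-05), and without the 2 libraries by 0.78 and 0.87. LIGHT-Undiff exceeded NC-Undiff by 0.43 (SE 0.14, edgeR adjusted p = 0.0366), which was lost when any 1 of the 6 undifferentiated libraries was left out, at adjusted p of 0.0649 to 0.117, and also with library totals (adjusted p = 0.0669) and limma on FPKM (adjusted p = 0.0801). When both doubted libraries were omitted this difference was 0.44 (adjusted p = 2.83e-05). LIGHT-Diff, at 0.07 over NC-Diff as labelled (adjusted p = 0.94), then exceeded NC-Diff by 0.35 (SE 0.08, edgeR adjusted p = 0.00176), or by 0.26 with only LIGHT-Diff 3 left in its group. Per length, Lrp5 averaged 83.8 FPKM in LIGHT-Diff, 84.5 FPKM in NC-Diff, 22.1 FPKM in LIGHT-Undiff and 16.1 FPKM in NC-Undiff, above Lrp6 at 11.0, 10.3, 7.33 and 5.47 FPKM in the same order. On 10 libraries Lrp5 averaged 82.4 FPKM in LIGHT-Diff and 85.2 FPKM in NC-Diff, and Lrp6 12.1 and 8.97 FPKM.

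Ctnnb1, which encodes beta-catenin, was the most abundant member per length in every group, at 127 ± 8.80 FPKM in LIGHT-Diff, 120 ± 3.44 FPKM in NC-Diff, 153 ± 3.44 FPKM in LIGHT-Undiff and 189 ± 1.67 FPKM in NC-Undiff (SD, n = 3 each). Its mean was 132 FPKM in LIGHT-Diff and 119 FPKM in NC-Diff without the 2 libraries. Ctnnb1 had 435, 473 and 450 CPM in LIGHT-Diff 1 to 3, 438, 440 and 433 CPM in NC-Diff 1 to 3, 515, 514 and 526 CPM in LIGHT-Undiff 1 to 3, and 632, 633 and 633 CPM in NC-Undiff 1 to 3. The undifferentiated lines were apart from each other and from all differentiated libraries, whose lines overlapped. On differentiation Ctnnb1 fell by 0.19 on the log2 scale in LIGHT cells (SE 0.06, edgeR adjusted p = 0.00958) and fell by 0.53 in NC cells (SE 0.06, edgeR adjusted p = 3.43e-06). LIGHT-Undiff was lower than NC-Undiff (log2 fold change -0.29, SE 0.06, edgeR adjusted p = 0.00291). The difference between the changes was 0.34 (SE 0.08, edgeR adjusted p = 0.0194). That call was lost without NC-Undiff 2, LIGHT-Undiff 1, LIGHT-Undiff 2, NC-Diff 3 or LIGHT-Diff 2, at adjusted p of 0.0515 to 0.0622, and with no filter (adjusted p = 0.052). Without the 2 libraries in doubt it was 0.35 (adjusted p = 0.000739), while the change was -0.51 in NC cells and -0.16 (adjusted p = 0.00807) in LIGHT cells. The change in LIGHT cells was -0.13 with only LIGHT-Diff 2 left in its group.

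Axin1, the scaffold of the destruction complex, averaged 75.3 ± 5.52 CPM in LIGHT-Diff, 69.5 ± 3.45 CPM in NC-Diff, 101 ± 9.54 CPM in LIGHT-Undiff and 114 ± 5.17 CPM in NC-Undiff (SD, n = 3 each), with no overlap between stages. Axin1 fell by 0.43 on the log2 scale in LIGHT cells (SE 0.08, edgeR adjusted p = 0.000547) and fell by 0.71 in NC cells (SE 0.08, edgeR adjusted p = 6.95e-06). The log2 fold changes were -0.36 in LIGHT cells and -0.66 in NC cells without the 2 libraries. Its log2 fold change of LIGHT-Undiff over NC-Undiff was -0.16 (edgeR adjusted p = 0.151), and -0.24 (adjusted p = 0.0493) without LIGHT-Undiff 3. Axin2, a widely used readout of beta-catenin signalling that feeds back on it, had 0 to 2 counts in every library and was not tested.

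Tcf7l1, the LEF/TCF factor known mainly as a repressor, was higher in the LIGHT line before differentiation and rose in both lines. Tcf7l1 had 245, 195 and 213 CPM in LIGHT-Diff 1 to 3, 188, 253 and 255 CPM in NC-Diff 1 to 3, 116, 121 and 125 CPM in LIGHT-Undiff 1 to 3, and 50.9, 51.3 and 52.8 CPM in NC-Undiff 1 to 3. The 4 groups formed 3 levels, with NC-Undiff lowest, LIGHT-Undiff above it and the differentiated libraries on top. LIGHT-Undiff exceeded NC-Undiff by 1.22 on the log2 scale (SE 0.11, edgeR adjusted p = 2.28e-05). On differentiation Tcf7l1 rose by 0.85 in LIGHT cells (SE 0.11, edgeR adjusted p = 2.83e-05) and by 2.17 in NC cells (SE 0.12, edgeR adjusted p = 7.96e-09), and without the 2 libraries by 0.77 and 2.32. The difference between the changes was -1.31 (SE 0.16, edgeR adjusted p = 0.000519), and -1.56 (SE 0.08, edgeR adjusted p = 1.63e-10) without the 2 libraries. LIGHT-Diff over NC-Diff gave -0.09 (SE 0.11, edgeR adjusted p = 0.917) as labelled. With the 2 libraries left out it was -0.32 (SE 0.06, edgeR adjusted p = 0.000273), so that the line with more Tcf7l1 before differentiation then had less after it.

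Tcf7l2, the LEF/TCF factor whose human counterpart is known for its association with type 2 diabetes, had 38.7, 27.0 and 30.3 CPM in LIGHT-Diff 1 to 3, 27.4, 37.4 and 37.4 CPM in NC-Diff 1 to 3, 18.6, 20.9 and 19.2 CPM in LIGHT-Undiff 1 to 3, and 22.7, 20.5 and 18.7 CPM in NC-Undiff 1 to 3. The undifferentiated lines overlapped, and all differentiated libraries lay above them. Tcf7l2 rose by 0.71 on the log2 scale in LIGHT cells (SE 0.15, edgeR adjusted p = 0.00117) and by 0.73 in NC cells (SE 0.15, edgeR adjusted p = 0.00084), and without the 2 libraries by 0.56 and 0.88. LIGHT-Diff over NC-Diff was -0.09 as labelled (adjusted p = 0.925). Without the 2 it was -0.39 (SE 0.10, edgeR adjusted p = 0.00564), and -0.31 with only LIGHT-Diff 3 left in its group.

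Lef1, known mainly as an activator with beta-catenin, had 13.0, 21.0 and 18.8 CPM in LIGHT-Diff 1 to 3, 16.8, 12.9 and 11.6 CPM in NC-Diff 1 to 3, 7.56, 6.97 and 5.48 CPM in LIGHT-Undiff 1 to 3, and 4.96, 6.01 and 4.84 CPM in NC-Undiff 1 to 3. Every differentiated library exceeded every undifferentiated one. Lef1 rose by 1.40 on the log2 scale in LIGHT cells (SE 0.20, edgeR adjusted p = 6.67e-05) and by 1.38 in NC cells (SE 0.21, edgeR adjusted p = 7.76e-05), and without the 2 libraries by 1.58 and 1.23. Its log2 fold change of LIGHT-Diff over NC-Diff was 0.36 (edgeR adjusted p = 0.913) as labelled and 0.70 (SE 0.15, edgeR adjusted p = 0.0017) without the 2 libraries, opposite in sign to Tcf7l1 and Tcf7l2. Per length Tcf7l1 stood far above both, at 78.9 FPKM in LIGHT-Diff, 82.2 FPKM in NC-Diff, 45.8 FPKM in LIGHT-Undiff and 19.9 FPKM in NC-Undiff, or 75.4 FPKM in LIGHT-Diff and 89.1 FPKM in NC-Diff without the 2 libraries, whereas no library exceeded 9.95 FPKM for Tcf7l2 or 5.98 FPKM for Lef1. Tcf7 had 0 to 12 counts and was not tested.

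**Figure D5:**
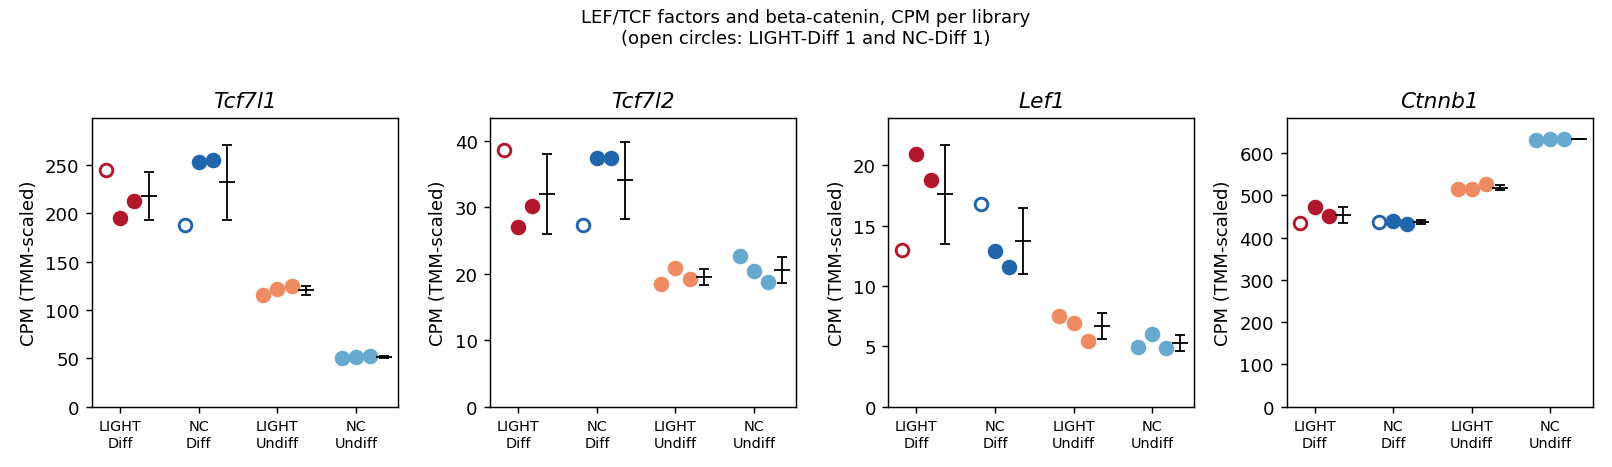
TMM-scaled CPM of 3 LEF/TCF factors and Ctnnb1 in each library (points), with the group mean ± SD (n = 3) at the right of each group and the libraries labelled LIGHT-Diff 1 and NC-Diff 1 as open circles. Tcf7l1 stands at 116 to 125 CPM in LIGHT-Undiff and 50.9 to 52.8 CPM in NC-Undiff, and Ctnnb1 at 514 to 526 CPM in LIGHT-Undiff and 632 to 633 CPM in NC-Undiff.

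The change on differentiation differed between the lines for 4 of 21 members in an interaction test with 12 libraries, where 9.34% of all genes were called, 5.08% with a positive and 4.26% with a negative difference. Ctnnb1 and Fzd7 fell less in LIGHT cells, and Lrp5 and Tcf7l1 rose less in LIGHT cells. The median log2 difference between the changes was -0.10 over the members and 0.00 over all genes. Over the other 10 libraries 9 of 22 were called, beside 31% of all genes (14.9% positive, 16.1% negative), and these added Axin1 and Fzd3 with a positive difference and Fzd1, Fzd4 and Wnt4 with a negative one.

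Genes for Wnt secretion and for other parts of the surface receptor complex were described from a list of 28 symbols, of which 25 were listed and 17 tested. Between LIGHT-Diff and LIGHT-Undiff 5 were called higher and 8 lower, with a median log2 fold change of -0.36, beside 29.5% of all genes higher and 29.1% lower. Between NC-Diff and NC-Undiff 5 were higher and 5 lower, with a median of -0.41, beside 32.2% and 31.7% of all genes. On 10 libraries 5 were higher and 8 lower in each line, with medians of -0.23 in LIGHT cells and -0.68 in NC cells, beside 32.3% of all genes higher and 31.9% lower in LIGHT cells and 35.8% and 34.9% in NC cells. Tspan12, a tetraspanin partner of Fzd4, averaged 62.6 ± 4.78 CPM in LIGHT-Diff, 64.1 ± 5.46 CPM in NC-Diff, 10.9 ± 0.16 CPM in LIGHT-Undiff and 8.75 ± 0.76 CPM in NC-Undiff (SD, n = 3 each). It rose by 2.52 on the log2 scale in LIGHT cells (edgeR adjusted p = 3.44e-10) and by 2.87 in NC cells (edgeR adjusted p = 1.07e-10). Porcn, the acyltransferase that lipid-modifies Wnts, rose by 1.91 in LIGHT cells (edgeR adjusted p = 1.36e-05) and by 2.05 in NC cells (edgeR adjusted p = 7.55e-06). Wls, which carries Wnts to the surface, fell by 0.90 in LIGHT cells (edgeR adjusted p = 1.18e-06) and fell by 0.67 in NC cells (edgeR adjusted p = 1.33e-05). On 10 libraries the log2 fold changes were 2.47 in LIGHT cells and 2.96 in NC cells for Tspan12, 2.12 and 1.80 for Porcn, and -0.85 and -0.73 for Wls.

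On the same list, 4 genes were higher and 3 lower in LIGHT-Undiff than in NC-Undiff, with a median log2 fold change of 0.14, beside 12.3% of all genes higher and 14.2% lower. On 10 libraries 7 were higher and 5 lower, with a median of 0.15, beside 22.3% and 22.1% of all genes. Lgr6, a receptor for R-spondins, had 1, 0 and 1 counts in LIGHT-Undiff 1 to 3 and 46, 30 and 42 in NC-Undiff 1 to 3. That was 61.7 times as many in NC-Undiff after scaling (95% interval 16.7 to 515, edgeR adjusted p = 0.000235). After differentiation Lgr6 had 15, 11 and 11 counts in LIGHT-Diff 1 to 3 and 5, 18 and 30 in NC-Diff 1 to 3. The labelled lines then overlapped. Lgr4, the related receptor, was higher in LIGHT-Undiff by 0.70 on the log2 scale (SE 0.09, edgeR adjusted p = 0.000274), at 79.2 ± 4.74 CPM in LIGHT-Undiff and 48.8 ± 5.49 CPM in NC-Undiff (SD, n = 3 each). Gpc4, a heparan sulphate proteoglycan of the cell surface, was higher in LIGHT-Undiff by 0.84 (SE 0.11, edgeR adjusted p = 0.000219). Between LIGHT-Diff and NC-Diff 0 of 17 were called as labelled, and without the 2 libraries 6 were higher in LIGHT-Diff and 0 lower, beside 14.6% of all genes higher and 16.4% lower. Among these 6 were Ror1 and Ptk7, receptors of the branch without beta-catenin, at log2 fold changes of 2.26 (SE 0.36, edgeR adjusted p = 7.93e-05) and 0.63 (SE 0.07, edgeR adjusted p = 1.8e-06), and Porcn at 0.76 (SE 0.12, edgeR adjusted p = 6.38e-05). Ror1 had 16, 117 and 76 counts in LIGHT-Diff 1 to 3 and 70, 26 and 13 in NC-Diff 1 to 3. As labelled its log2 fold change was 0.86 (SE 0.62, edgeR adjusted p = 0.913).

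The list of intracellular components had 44 symbols, of which 42 were listed and 39 tested. Between LIGHT-Diff and LIGHT-Undiff 11 were called higher and 8 lower, with a median log2 fold change of 0.09, beside 29.5% of all genes higher and 29.1% lower. Between NC-Diff and NC-Undiff 15 were higher and 9 lower, with a median of 0.13, beside 32.2% and 31.7% of all genes. With both doubted libraries omitted 15 were higher and 8 lower in LIGHT cells, beside 32.3% and 31.9% of all genes, and 16 higher and 9 lower in NC cells, beside 35.8% and 34.9%, with medians of 0.11 and 0.12. Prickle1, a planar polarity protein, rose by 1.22 in LIGHT cells (edgeR adjusted p = 2.12e-05) and by 1.98 in NC cells (edgeR adjusted p = 3.25e-07), and Dvl2, a Dishevelled protein that relays Frizzled signals, fell by 0.59 in LIGHT cells (edgeR adjusted p = 1.14e-05) and fell by 0.64 in NC cells (edgeR adjusted p = 4.22e-06). The log2 fold changes without the 2 libraries were 1.33 in LIGHT cells and 1.85 in NC cells for Prickle1, and -0.55 and -0.65 for Dvl2. Between the undifferentiated lines 7 were higher and 3 lower in LIGHT-Undiff, with a median of 0.07, beside 12.3% of all genes higher and 14.2% lower, and over the other 10 libraries 9 were higher and 4 lower, beside 22.3% and 22.1%. Tle2, a Groucho corepressor that binds LEF/TCF factors, averaged 45.1 ± 3.01 CPM in LIGHT-Undiff and 21.0 ± 1.90 CPM in NC-Undiff (SD, n = 3 each), a log2 fold change of 1.10 (SE 0.16, edgeR adjusted p = 0.000429). When both doubted libraries were omitted Tle2 was also higher in LIGHT-Diff than in NC-Diff, by 0.57 (SE 0.09, edgeR adjusted p = 8.68e-05). In that comparison 6 of 39 were then higher and 4 lower, beside 14.6% and 16.4% of all genes, and 0 were called as labelled.

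Reported target genes of beta-catenin formed a list of 37 symbols, of which 32 were listed and 23 tested, and which includes Lef1, Axin2 and Tcf7. Many of these genes also answer to other signals. Between LIGHT-Diff and LIGHT-Undiff 6 were called higher and 12 lower, with a median log2 fold change of -0.65, beside 29.5% of all genes higher and 29.1% lower. Between NC-Diff and NC-Undiff 5 were higher and 13 lower, with a median of -0.75, beside 32.2% and 31.7% of all genes. With both doubted libraries omitted 7 were higher and 13 lower in LIGHT cells, beside 32.3% and 31.9% of all genes, and 5 higher and 14 lower in NC cells, beside 35.8% and 34.9%, with medians of -0.57 and -0.76. Ccnd1, which encodes cyclin D1, fell by 1.69 on the log2 scale in LIGHT cells (edgeR adjusted p = 2.27e-08) and fell by 2.46 in NC cells (edgeR adjusted p = 7.43e-10). Wisp1, a matricellular CCN protein, fell by 2.07 in LIGHT cells (edgeR adjusted p = 8.34e-10) and fell by 2.12 in NC cells (edgeR adjusted p = 5.09e-10). Ppard, a nuclear receptor, rose by 1.15 in LIGHT cells (edgeR adjusted p = 1.16e-07) and by 1.28 in NC cells (edgeR adjusted p = 3.43e-08). The log2 fold changes on 10 libraries were -1.60 in LIGHT cells and -2.55 in NC cells for Ccnd1, -2.11 and -2.08 for Wisp1, and 1.12 and 1.39 for Ppard. On these libraries Fosl1, an AP-1 subunit, rose by 2.855 in LIGHT cells and by 2.013 in NC cells. Vegfa rose by 1.85 in NC cells. Wisp2, a CCN family protein, had log2 fold changes of -3.585 in LIGHT cells and -2.099 in NC cells.

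Between the undifferentiated lines 2 of the 23 reported targets were higher and 7 lower in LIGHT-Undiff, with a median log2 fold change of -0.03, beside 12.3% of all genes higher and 14.2% lower. On 10 libraries 7 were higher and 10 lower, with a median of -0.02, beside 22.3% and 22.1% of all genes. Ccnd1 had 376.5, 356.6 and 382.7 CPM in LIGHT-Undiff 1 to 3 and 592.4, 604.2 and 632.5 CPM in NC-Undiff 1 to 3, which did not overlap (log2 fold change -0.71, SE 0.10, edgeR adjusted p = 0.000269). Plaur, the urokinase receptor, was lower in LIGHT-Undiff with a log2 fold change of -1.57 (SE 0.13, edgeR adjusted p = 1.01e-05), and Cd44, a hyaluronan receptor, with -0.76 (SE 0.11, edgeR adjusted p = 0.000406). Myc gave -0.52 (SE 0.09, edgeR adjusted p = 0.00125). After differentiation 0 of 23 were called as labelled. Without the 2 libraries 9 were higher and 3 lower in LIGHT-Diff, beside 14.6% and 16.4% of all genes, and the median log2 fold change was 0.24. Among the higher ones were the ephrin receptors Ephb2, at 1.31 (SE 0.12, edgeR adjusted p = 7.97e-08), and Ephb3, at 0.60 (SE 0.09, edgeR adjusted p = 3.67e-05), and the transcription factor Twist1, at 0.60 (SE 0.07, edgeR adjusted p = 4.37e-06). Among the lower ones were Fosl1 at -1.30 (SE 0.07, edgeR adjusted p = 1.22e-10) and Wisp2 at -1.24 (SE 0.09, edgeR adjusted p = 9.25e-09). Fosl1 was already lower in LIGHT-Undiff than in NC-Undiff on 10 libraries, at -2.14 (SE 0.07, edgeR adjusted p = 4.9e-14).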

How the data were processed

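The deposited tables gave per gene and library an expected count and an FPKM value, per the file headers. The expected counts made by the authors are estimates that need not be whole, and 83.6% to 84.5% of the listed ones were. The deposited FPKM divides by gene length and library total. Genes not listed in a library were read as 0. Per the submitters' processing notes the genome build was mm8, while the aligner, the counting program and any use of strand were not given in the sources used here, so reads shared by related or overlapping genes cannot be told apart. Promoter windows came from RefSeq on GRCm38.p6, where 30 of the 46 members had an entry, and were searched on both strands.

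After rounding to whole numbers, expected counts were tested with edgeR 4.0.16 (R 4.3.3, limma 3.58.1): TMM scaling, filterByExpr (minimum count 10), a quasi-likelihood fit with 1 coefficient per group over all 12 libraries, and 5 contrasts, with Benjamini-Hochberg adjustment over 12993 genes. The same fit on 10 libraries left out NC-Diff 1 and LIGHT-Diff 1 and tested 13150 genes. SE is the absolute log2 fold change over the square root of F. CPM are TMM-scaled. Ratios for groups with 1 to 3 summed counts carry exact 95% intervals, for counting error alone (PCR copies are not independent molecules).

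Members, pathway lists and the 2 doubted libraries were chosen with earlier results of these data known. Members were named with values per library where called in any contrast and at 1 CPM or more in the highest group; up to 5 genes per list and contrast, those with the smallest p, could be named. The settings varied were the tool (DESeq2 1.42.0), the scaling (RLE factors or library totals), the filter (none), a replicate block, limma on log2(FPKM + 0.1), the undifferentiated libraries alone and each library left out.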

Additional observations from a re-analysis of the deposited data

Results flagged for a closer look

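The change on differentiation differed between the LIGHT and NC lines in an edgeR interaction test for the following genes, all given as log2 differences, LIGHT minus NC. With 12 libraries the difference was 0.72 for Fzd7, -1.31 for Tcf7l1, 0.34 for Ctnnb1 and -0.51 for Lrp5. Without the libraries labelled NC-Diff 1 and LIGHT-Diff 1 it was -0.32 for Fzd1, 0.77 for Fzd3, -0.67 for Fzd4, 0.82 for Fzd7, -1.56 for Tcf7l1, 0.30 for Axin1, 0.35 for Ctnnb1, -0.61 for Lrp5 and -1.01 for Wnt4. In the second set the calls of Fzd3, Fzd4 and Axin1 were lost without at least 1 undifferentiated library. The edgeR adjusted p then reached 0.0643 for Fzd3, 0.0864 for Fzd4 and 0.0812 for Axin1. Library totals gave an edgeR adjusted p of 0.0863 for Fzd1 and 0.07 for Fzd4. With only LIGHT-Diff 2 left in its group the difference was -0.285 for Fzd1 and -0.598 for Fzd4. With only NC-Diff 2 left in its group it was -0.425 for Wnt4.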

How the results depend on the processing

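Leaving out NC-Diff 1 and LIGHT-Diff 1 moved the number of members called between LIGHT-Diff and NC-Diff to 10, against 0 with all 12 libraries, and the number called in the interaction to 9, against 4. Of all genes tested, 31% were then called in each of these comparisons, against 0% and 9.34% with all 12 libraries. Leaving out 1 library at a time gave 6 to 12 calls between LIGHT-Undiff and NC-Undiff, against 10, with the lowest count without NC-Undiff 2. Over all genes these runs gave 2238 to 4280 calls, against 3446 with all 12 libraries. The cause was not tested. No named member called with 12 libraries changed sign under any alternative run. Of those called only without the 2 libraries, 4 had the opposite sign in some 12-library setting: Fzd1 on differentiation of LIGHT cells (-0.008 with library totals, -0.02 with limma on FPKM and -0.04 without LIGHT-Diff 2), and between LIGHT-Diff and NC-Diff Fzd2 (-0.01 without NC-Diff 2), Lrp6 (-0.004 to -0.04 without NC-Diff 2, NC-Diff 3 or LIGHT-Diff 2) and Tcf7l2 (0.02 without LIGHT-Diff 2). The other counts of members stayed within 1.5 times their main value under DESeq2, RLE scaling, library totals, no filter, limma on FPKM and each library left out. Of 18 pairs of libraries with the same replicate number, 0 had deviations correlated above 0.1 (median -0.02), which does not settle whether the numbers pair the samples. Between the stages of 1 line, pairs with the same number had correlations of 0.036 to 0.097, and other pairs -0.089 to 0.006. With a replicate block the counts were 15, 16, 8, 0 and 3 for LIGHT differentiation, NC differentiation, LIGHT-Undiff against NC-Undiff, LIGHT-Diff against NC-Diff and the interaction. Over all 12993 genes tested the calls were 7220, 7931, 2834, 0 and 747 with the block, in the same order. They were 7612, 8307, 3446, 0 and 1214 without it. The block put the adjusted p between the undifferentiated lines at 0.0604 for Fzd2 and 0.0702 for Lrp6, and that of the Ctnnb1 interaction at 0.0525. Scaling by library totals shifted the median over all genes on differentiation of NC cells to -0.11 on the log2 scale, and to -0.15 without the 2 libraries, where it also moved the share of called genes that were higher to 66% for LIGHT-Diff against NC-Diff (47.1% with TMM), to 65.4% for the interaction (48.2%) and to 40.1% for NC differentiation (50.6%). Depth limits the 25 members not tested with 12 libraries, and Rspo3, Dkk2 and Wnt10b, which rest on 84 counts or fewer in any library.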
